A study of Mus musculus with 32 samples.

Results

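The genes described here are 36 genes that T cells, natural killer (NK) cells and other innate lymphoid cells use: the chains of the T cell receptor complex, its kinases and coreceptors, further lymphocyte surface proteins, transcription factors of these lineages, cytokine receptors and effector proteins. They were listed by symbol, with earlier results of these data known, and all 36 were rows of a count table of 24421 genes. Of these 36 genes, 35 passed the filter on low counts that left 14154 genes for testing, and Tnfrsf4, a costimulatory receptor, did not, with a highest count of 13. Transcriptomes came from 8 fractions of bone marrow, namely hematopoietic stem cells (HSCs), the 4 multipotent progenitors MPP1 to MPP4, the progenitors of granulocytes and macrophages (GMPs) and of megakaryocytes and erythrocytes (MEPs), and the common progenitor of lymphoid cells (CLPs). All were flow-sorted from C57BL/6 mice, which the study's methods give as female, at the age of 10 weeks (Young) or 20 months (Aged), with no genotype or treatment named for any group. Each of the 16 groups had 2 libraries, 32 in all.

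T cells recognise antigen through a receptor whose signal passes through the CD3 chains to the kinases Lck and Zap70 and the adaptor Lat, with CD4 or CD8 as coreceptor. NK cells and other innate lymphoid cells lack that receptor but share many of the surface proteins, transcription factors and the common gamma chain of the interleukin receptors. The progenitors of all these cells arise in bone marrow, and T cells complete their development in the thymus, so the CD3 chains are used mainly by cells later than the sorted fractions.

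The sort excluded lineage-positive cells, with antibodies to CD4, CD8 and B220 among those named in the study's methods, and CLPs were gated on the interleukin-7 receptor with low c-Kit and low Sca-1. According to the study, marrow of each age was pooled before duplicate sorts, and elsewhere it calls the duplicates biological. P-values therefore measure the spread between these libraries, which may be that of the sort and of library preparation rather than of mice. Total counts per library were 11237384 to 17723245 with a median of 13489609, and a count of 0 allows up to 3 counts, or 0.169 to 0.267 CPM (counts scaled to a library total of 1000000). Intervals of this kind cover counting error alone. Libraries of some fractions differed with age in marker genes of other cell types, whose values are given after the results on single genes.

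Of the 36 genes, 3 code for CD3 chains and lie side by side on chromosome 9 of the mouse genome (mm10): Cd3g at 44969572 to 44980431, Cd3d at 44981786 to 44987339 and Cd3e at 44998740 to 45009627. Cd8b1 and Cd8a are neighbours on chromosome 6, at 71322788 to 71337494 and 71373427 to 71379173. Rora, a nuclear receptor gene that innate lymphoid cells of the second type need, starts further along chromosome 9, at 68653786. RefSeq start sites in GRCm38.p6 were matched for 22 of the 36 genes. The 250 bases before the start are shown for a pair of genes that were at or near 0 in most fractions and for Rora, which was present in 30 of 32 libraries above 3 counts. Capitals mark CG dinucleotides, which are dense in the promoters of many broadly used genes.
Cd3d (chr9:44981536-44981785, plus strand): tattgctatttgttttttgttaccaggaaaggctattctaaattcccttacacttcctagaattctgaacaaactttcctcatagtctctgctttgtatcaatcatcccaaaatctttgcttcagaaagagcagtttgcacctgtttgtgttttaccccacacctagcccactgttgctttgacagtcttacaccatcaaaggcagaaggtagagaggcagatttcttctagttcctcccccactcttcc
Cd3e (chr9:45009612-45009861, minus strand): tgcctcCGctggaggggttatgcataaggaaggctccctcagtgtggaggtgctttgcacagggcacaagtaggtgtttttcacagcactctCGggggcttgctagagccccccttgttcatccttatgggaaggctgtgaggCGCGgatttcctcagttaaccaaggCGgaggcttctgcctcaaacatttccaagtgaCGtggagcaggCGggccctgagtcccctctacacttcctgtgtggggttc
Rora (chr9:68653536-68653785, plus strand): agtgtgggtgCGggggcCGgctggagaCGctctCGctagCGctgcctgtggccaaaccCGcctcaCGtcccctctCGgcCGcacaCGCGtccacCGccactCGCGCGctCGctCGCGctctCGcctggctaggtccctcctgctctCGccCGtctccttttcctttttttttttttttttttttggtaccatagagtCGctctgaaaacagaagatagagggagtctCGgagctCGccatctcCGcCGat
The Cd3d window held 0 CG dinucleotides, that of Cd3e 7 and that of Rora 26. Among all 32851 windows of the table the median was 6, and 37.8% held 10 or more. Of the 22 genes, 4 held 10 or more, Gata3, Rora and Tbx21 among them, and the other 18 held fewer. A mean level over 1 CPM in Young HSCs was found for 2 of these 4 genes and for 6 of the 18.

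Most of the genes had their highest level in CLPs. By mean CPM the highest fraction was the CLP for 25 of 36 genes in Young and 22 of 36 in Aged cells. Another 4 genes in Young cells, Gata3, Il7, Rora and Tox, were highest in HSCs. Only 7 genes were above 3 counts in all 32 libraries: Lck, Lat, Cd27, Tcf7, Zbtb16, Il2rg and Ets1. Per kilobase of exon, the levels in Young CLPs ranged from 191 CPM per kb for Cd7, an immunoglobulin-family protein of T, NK and progenitor cells, through 42.9 for Lck and 28.6 for Klrd1, the CD94 receptor of NK cells, to 0.346, 0.451 and 0.582 for Cd3g, Cd3d and Cd3e. Lck thus stood far above the CD3 chains per kb in the same cells. The heat map gives the level of all 36 genes in every library.

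**Figure D1:**
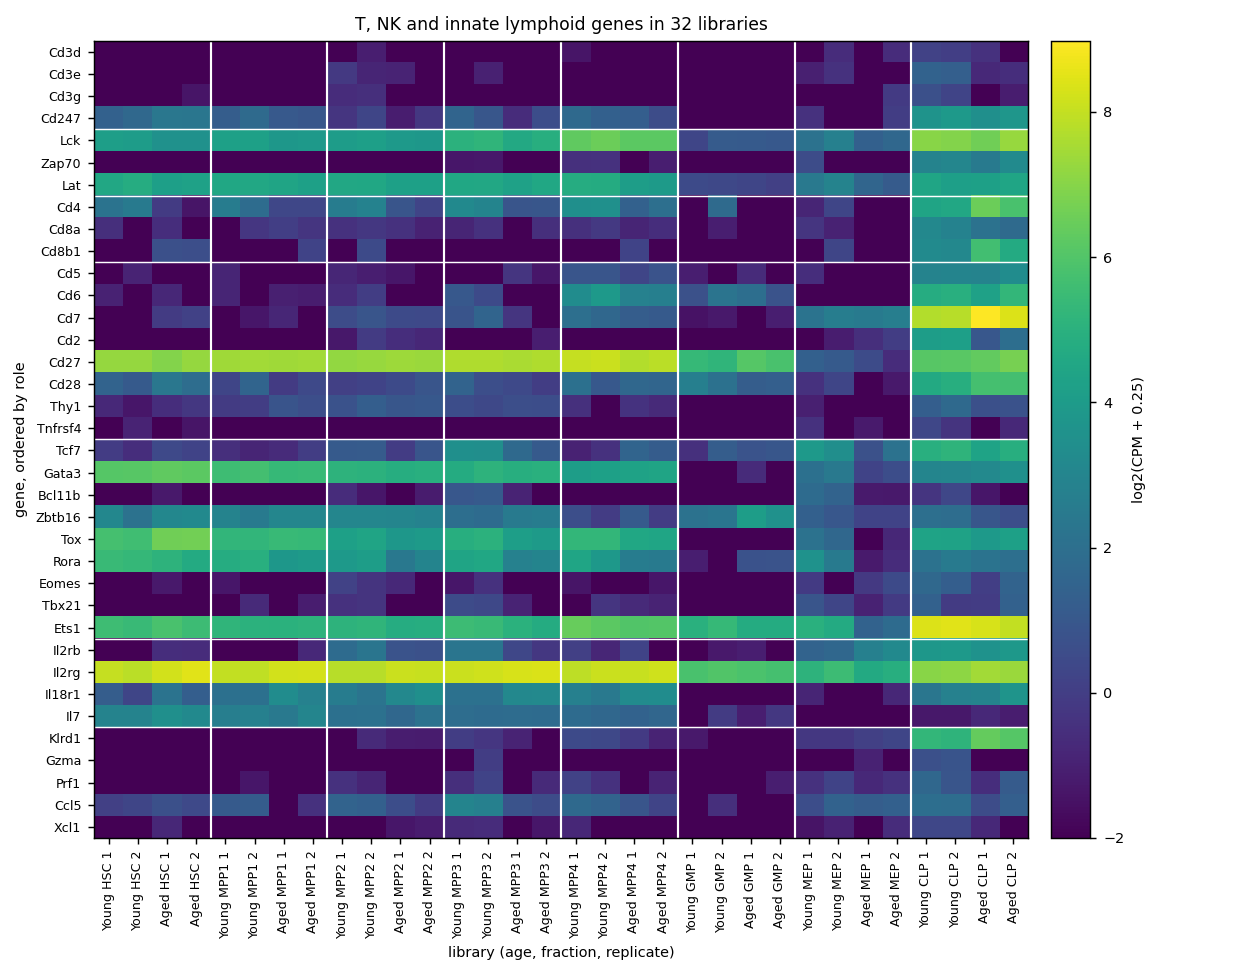
Level of each of the 36 genes (rows, ordered by role) in each of the 32 libraries (columns, age, fraction and replicate), as log2(CPM + 0.25) in colour. The CLP columns at the right are the brightest for most rows, whereas Il2rg, Cd27, Lat, Gata3 and Rora are bright in HSCs and multipotent progenitors, and the rows of Cd3d, Cd3e and Cd3g at the top are dark in most libraries outside CLPs.

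Between HSCs and MPP4, the lymphoid-primed progenitor, part of the genes differed, at a share below that over all genes at both ages. In Young cells 7 of 35 genes were called higher and 3 lower in MPP4 at an adjusted p under 0.01. That was 28.6% of the 35, beside 34.6% of all genes. In Aged cells 7 were higher and 5 lower, or 34.3% beside 45.5% of all genes. Lck had 198 and 235 counts in Young HSCs and 1190 and 1146 in Young MPP4, a log2 difference of 2.36 (SE 0.186, adjusted p = 8.48e-10). In Aged cells the same difference was 2.78 (SE 0.193, adjusted p = 7.30e-11). Cd6, a scavenger-receptor protein of T cells, had 3 and 0 counts in Young HSCs and 150 and 189 in Young MPP4, a log2 difference of at least 5.71. Il18r1, the interleukin-18 receptor, was higher in MPP4 by 2.00 (SE 0.475) in Young and by 1.70 (SE 0.429) in Aged cells. Zbtb16, Gata3 and Rora were lower in MPP4 at both ages, with log2 differences of -2.53, -1.92 and -1.18 in Young and -2.63, -1.81 and -2.32 in Aged cells.

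A larger part of the genes was higher in CLPs than in MPP4. In Young cells 17 of 35 were higher and 6 lower (41.8% of all genes were called), and in Aged cells 15 were higher and 4 lower (40.5% of all genes), with medians over the 35 genes of 2.61 and 2.93 on the log2 scale beside 0.00 and 0.00 for all genes. Cd7 had 57 and 37 counts in Young MPP4 and 2677 and 2889 in Young CLPs, a log2 difference of 6.15 (SE 0.299, adjusted p = 7.25e-13). Cd2, an adhesion protein of T and NK cells, had 0 counts in the 4 MPP4 libraries of both ages, so that its difference was at least 6.33 in Young and at least 3.61 in Aged CLPs. Ets1, a transcription factor of T, NK and B cells, was higher in CLPs by 2.27 (SE 0.132) in Young and 2.23 (SE 0.132) in Aged cells. Il7, the cytokine itself, went the other way and was lower in CLPs, by a log2 difference of at most -3.75 in Young and of -3.08 (SE 0.613) in Aged cells. Cd27, Gata3 and Il2rg were also lower in CLPs at both ages.

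Between Aged and Young cells of the same fraction, 30 calls were made over the 8 fractions, 7 higher and 23 lower in Aged cells, on 15 genes. The remaining 21 genes were called in no fraction. Of 35 genes, HSCs had 2 higher and 0 lower (5.4% of all genes were called in either direction), MPP1 had 0 and 0 (6.8%), MPP2 0 and 1 (7.81%), MPP3 0 and 8 (13.9%), MPP4 1 and 3 (16.6%), GMPs 3 and 2 (18.9%), MEPs 0 and 9 (20.8%) and CLPs 1 and 0 (10.4%). As shares of 35 these were 5.71%, 0%, 2.86%, 22.9%, 11.4%, 14.3%, 25.7% and 2.86%, above the share over all genes in MPP3 and MEPs, close to it in HSCs and below it in the other 5 fractions. The median log2 difference of the 35 genes was -1.03 in MPP3 and -1.16 in MEPs, beside -0.04 and 0.00 over all genes. In MPP1, where edgeR called 0 of the genes, 5 had an unadjusted p under 0.05, 2 higher and 3 lower, and DESeq2 called 2 (12.8% of all genes). Most of the calls rested on both duplicates: with 1 library left out, the calls were 1 to 4 in MPP3, lowest without Young or Aged MPP3 replicate 2, 0 to 2 in MPP4, lowest without Young replicate 1, 1 to 5 in GMPs, lowest without Aged replicate 1, and 6 to 8 in MEPs. In such a fit the lone library of a group is assumed to vary like those of the other groups. The main fit also takes the spread from all 16 groups. An edgeR fit on the MEP libraries alone kept 2 of the 9 calls in MEPs, Rora and Ets1. Those 2 were 5.71% of the 35, close to the 5.53% of all genes called in the same fit. In that fit the adjusted p of Lat, Gata3 and Tox in MEPs was 0.0414, 0.0245 and 0.0265 in turn.

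**Figure D2:**
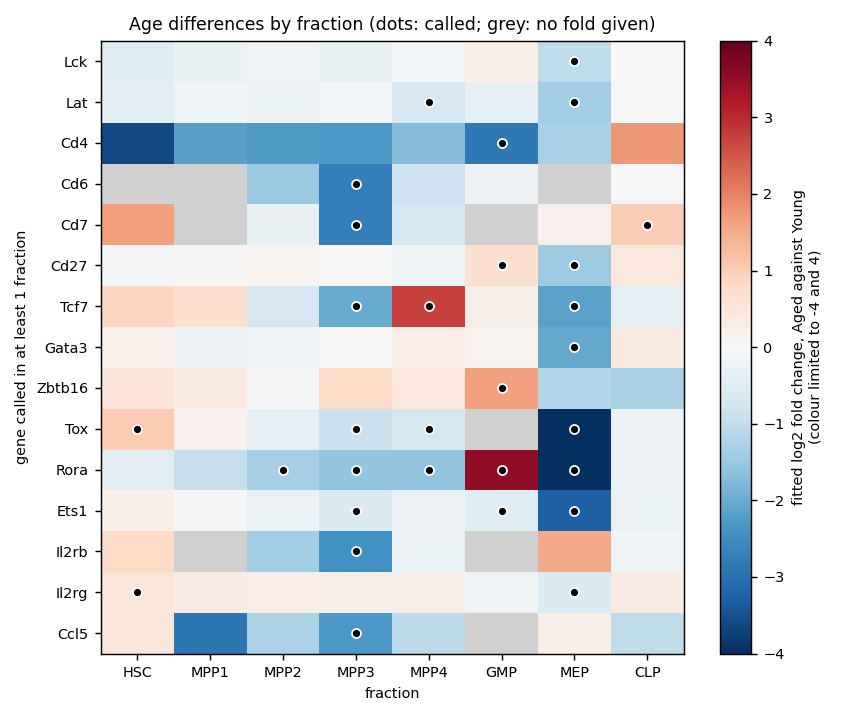
Log2 difference of Aged against Young cells (colour, limited to -4 and 4) for the 15 genes called in at least 1 fraction (rows) in each of the 8 fractions (columns). Black dots mark calls at an adjusted p under 0.01, a gene at or under 3 counts in both libraries of an age is coloured by its bound, and grey marks cells where no fold is given. The column of MEPs holds 9 dots and that of MPP3 8, all on the lower side, and Rora and Tox have the most dots of any row.

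The CD3 chains of the T cell receptor complex were near the limit of detection outside CLPs, and no gene of the complex was called with age in any fraction. In HSCs, MPP1, MPP4 and GMPs of both ages, Cd3d, Cd3e and Cd3g had between 0 and 2 counts in every library. The highest counts outside CLPs were 8 for Cd3e in Young MPP2 replicate 1 and 8 for Cd3g in Aged MEP replicate 2. In CLPs, Cd3e had 32 and 29 counts in Young and 5 and 6 in Aged libraries, Cd3g had 17 and 12 against 0 and 3, and Cd3d had 11 and 10 against 7 and 0. All 3 chains were lower in both Aged CLP libraries than in both Young ones, and none passed the test, with log2 differences of -2.55 (SE 0.982, adjusted p = 0.100) for Cd3e and at most -2.40 (adjusted p = 0.148) for Cd3g. Cd247, the zeta chain, which NK cells also use, had 154 and 196 counts in Young and 152 and 189 in Aged CLPs, a difference of -0.15 (SE 0.506, adjusted p = 0.912). Outside CLPs it was above 3 counts in most libraries, with 27 and 43 in Young HSCs and 57 and 69 in Aged HSCs. Of its exon bases, 3007 overlap Pou2f1 on the opposite strand, and with no strand setting stated the reads there cannot be told apart. Trac, Trbc1 and Trbc2, constant-region genes of the receptor itself, were looked for as mature T cell markers. They were not in the count table under these symbols, so their levels are not known here.

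Lck and Lat were above 3 counts in all 32 libraries, and their age calls were in MEPs and, for Lat, also in MPP4. Lck fell in MEPs, from 68 and 95 counts in Young to 26 and 35 in Aged libraries, with a log2 difference of -1.02 (SE 0.278, adjusted p = 0.00744). That call was lost without Young MEP replicate 2 (adjusted p = 0.120), Aged replicate 1 (0.0731) or Aged replicate 2 (0.0168). Lat fell in MEPs from 85 and 105 to 31 and 24 counts, by 1.38 on the log2 scale (SE 0.198, adjusted p = 1.65e-05), which held with any 1 library left out. In MPP4 Lat fell from 420 and 334 to 229 and 213 counts, with a difference of -0.67 (SE 0.147, adjusted p = 0.00175) that was lost without Young replicate 1 (adjusted p = 0.0156) or Aged replicate 2 (0.0333). Zap70 was above 3 counts in 7 libraries and had 93 and 105 counts in Young and 78 and 129 in Aged CLPs, with overlapping groups.

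Cd4, the coreceptor of helper T cells, was lower in Aged HSCs and multipotent progenitors and higher in Aged CLPs. Its counts were 48 and 78 in Young and 8 and 2 in Aged HSCs, 79 and 47 against 13 and 15 in MPP1, and 73 and 92 against 23 and 14 in MPP2. In MPP3 they were 120 and 92 against 23 and 22, and in MPP4 162 and 140 against 32 and 52. In each of these 5 fractions both Aged libraries lay below both Young ones. In CLPs the order was the opposite, with 269 and 308 counts in Young and 1268 and 799 in Aged libraries, or 22.5 ± 1.81 and 73.8 ± 23.6 CPM (SD, n = 2). The gene lies on chromosome 6 at 124864692 to 124888221.

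Taken fraction by fraction, none of these 6 differences of Cd4 passed the test. The log2 differences were -3.60 for HSCs (SE 0.898, adjusted p = 0.0126), -2.16 (SE 0.748, 0.0654), -2.27 (SE 0.701, 0.0339), -2.29 (SE 0.672, 0.0175) and -1.75 (SE 0.611, 0.0409) for MPP1 to MPP4 in turn, and 1.74 for CLPs (SE 0.528, 0.0259). The fit estimates 1 spread per gene over all 16 groups, and for Cd4 the Young GMP duplicates had 0 and 58 counts. In a fit without the GMP and MEP libraries, chosen after seeing the data, all 6 differences passed, with an adjusted p of 8.57e-05 for HSCs, 0.00151, 0.000493, 0.000142 and 0.000403 for MPP1 to MPP4 in turn and 8.56e-05 for CLPs. Over the alternatives other than leaving out 1 library the adjusted p ran from 8.57e-05 to 0.0156 for HSCs, with MPP1 from 0.00151 to 0.0964, with MPP2 from 0.000488 to 0.0648, with MPP3 from 0.000142 to 0.0425, with MPP4 from 0.000403 to 0.121, and from 8.56e-05 to 0.159 for CLPs. With 1 library left out in turn none of the 6 passed, and the adjusted p reached 0.11 for HSCs, 0.349, 0.224, 0.0936 and 0.23 for MPP1 to MPP4 in turn and 0.255 for CLPs. Averaged over the multipotent fractions MPP1 to MPP4, a contrast added after seeing the data, the age difference was -2.12 (SE 0.342, adjusted p = 3.91e-05) for Cd4, and 2 genes were called higher and 7 lower in it (36.7% of all genes were called). Beside genes described further on, these were Tox (-0.44, SE 0.078), Lat (-0.30, SE 0.0732), Ets1 (-0.28, SE 0.0681) and Cd6 (-3.36, SE 0.944). The call of Cd6 was lost without any of 10 libraries, with an adjusted p of 1 without Young MPP1 replicate 1, and that of Ets1 without any of 5 (up to 0.0153). The age difference in CLPs minus that in MPP4 was 3.49 for Cd4 (SE 0.806, adjusted p = 0.00288) and stayed between 3.08 and 3.86 with 1 library left out. It no longer passed without Young CLP replicate 1 (0.0151), Young CLP replicate 2 (0.0115), Aged MPP4 replicate 1 (0.0221) or Aged CLP replicate 1 (0.0220), or in DESeq2 (0.0212).

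The call of Cd4 in GMPs rested on 1 library. The counts were 0 and 58 in Young and 0 and 0 in Aged GMPs, so the groups overlapped, and the call (adjusted p = 0.00961) was absent without Young GMP replicate 2 (adjusted p = 1), which held all the counts. It was also lost without Aged GMP replicate 1 (0.0666) or Aged replicate 2 (0.0586). In MEPs Cd4 had 5 and 14 counts in Young and 0 and 0 in Aged libraries, with no call (adjusted p = 0.0984).

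Both genes of the CD8 coreceptor had at most 19 counts outside CLPs, and in CLPs they moved in opposite directions. Cd8b1, the beta chain, had 117 and 111 counts in Young and 704 and 358 in Aged CLPs, a difference of 2.12 (SE 0.880, adjusted p = 0.122). Cd8a, the alpha chain, had 109 and 91 counts in Young and 59 and 45 in Aged CLPs, a difference of -1.05 (SE 0.804, adjusted p = 0.412). Neither passed the test, although the groups did not overlap for either gene. In HSCs Cd8b1 had 0 and 0 counts in Young and 16 and 19 in Aged libraries, a difference of at least 2.48 with no call (adjusted p = 0.141).

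**Figure D3:**
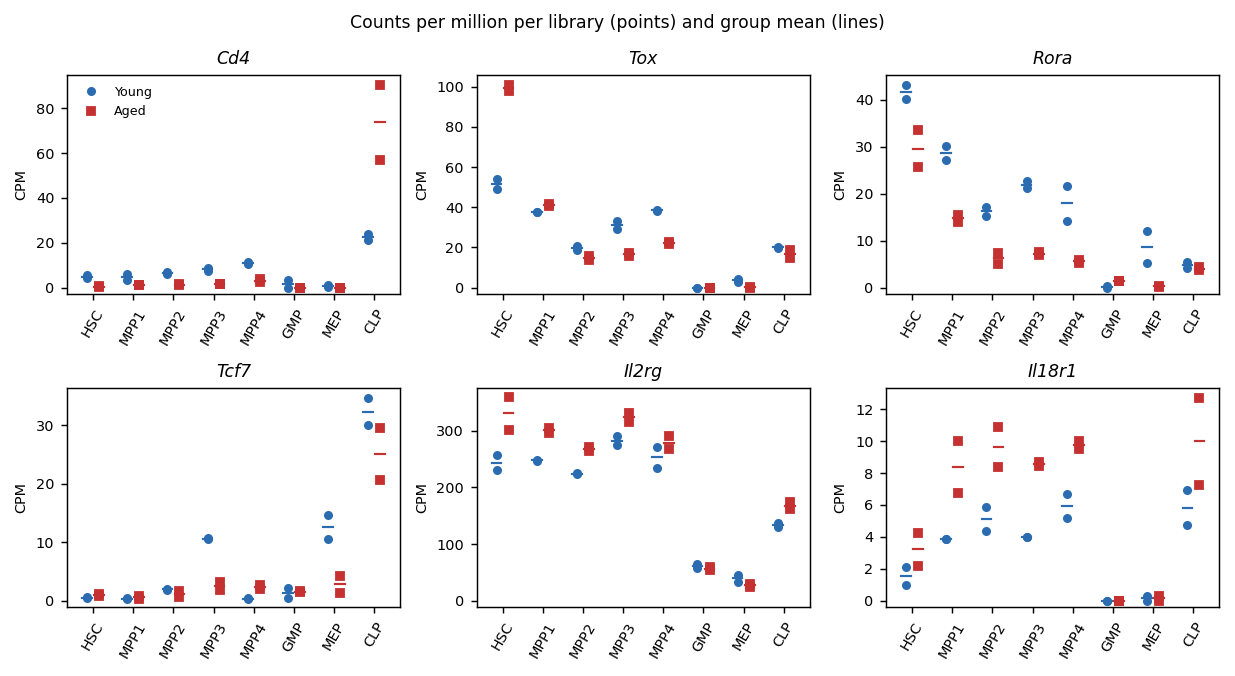
CPM of Cd4, Tox, Rora, Tcf7, Il2rg and Il18r1 in each library (points, Young circles and Aged squares) by fraction, with group means of 2 libraries as lines. Aged Cd4 lies below Young from HSCs to MPP4 and far above it in CLPs, Tox is higher in Aged HSCs and lower in Aged MPP3 and MPP4, and Rora is lower in Aged cells from MPP2 to MPP4.

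Among the other surface proteins, Cd7 was called in CLPs and in MPP3, in opposite directions. In CLPs it had 2677 and 2889 counts in Young and 7070 and 4744 in Aged libraries, or 217 ± 8.42 and 422 ± 117 CPM (SD, n = 2). The log2 difference was 0.98 (SE 0.216, adjusted p = 0.00289), and the call was lost without Young CLP replicate 1 (0.0433), Young replicate 2 (0.0284) or Aged replicate 1 (adjusted p = 0.133, difference 0.63). In MPP3 it fell from 21 and 32 to 8 and 0 counts, a difference of -2.76 (SE 0.686, adjusted p = 0.00568) that ran from -1.84 to -7.74 with 1 library left out and was lost without Young MPP3 replicate 2 (adjusted p = 0.0655) or Aged replicate 2 (0.0746). The age difference in CLPs minus that in MPP4 was 1.67 for Cd7 (SE 0.464, adjusted p = 0.0099), and of the 8 libraries it passed only without Aged CLP replicate 2 (0.00259), the other adjusted p-values being 0.0158 to 0.0751.

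Cd6 fell in MPP3 from 24 and 14 counts to 0 and 0, a log2 difference of at most -2.76 (adjusted p = 0.00662) that was lost with any 1 of the 4 libraries left out (adjusted p 0.0144 to 0.0470). In CLPs Cd6 had 345 and 394 counts in Young and 266 and 529 in Aged libraries, which overlapped. Cd27, a costimulatory receptor of the tumour necrosis factor receptor family that is also present on primitive progenitors, rose in GMPs from 707 and 648 to 903 and 766 counts (0.65, SE 0.133, adjusted p = 0.000862). It fell in MEPs from 38 and 28 to 13 and 5 counts (-1.45, SE 0.358, adjusted p = 0.00351), a call lost without Young MEP replicate 1 (0.0315) or Aged replicate 2 (0.0759). The rise in GMPs was lost without Young GMP replicate 2 (0.0150) or Aged replicate 1 (0.0255).

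Cd2 had 217 and 236 counts in Young and 24 and 51 in Aged CLPs, a difference of -2.71 (SE 0.663, adjusted p = 0.0134) that did not pass the threshold. Over the alternatives the adjusted p of Cd2 ran from 0.00395 to 0.73. Cd28, the costimulatory receptor of T cells, had 317 and 385 counts in Young and 751 and 728 in Aged CLPs, with a difference of 0.97 (SE 0.327, adjusted p = 0.0425). For both genes the groups did not overlap, Cd2 being lower and Cd28 higher in Aged CLPs. Cd5 and Thy1, also T cell surface proteins, were called with age in no fraction. Their counts in CLPs were 93 and 97 in Young and 102 and 138 in Aged libraries for Cd5, and 28 and 40 against 19 and 20 for Thy1.

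The transcription factors gave the most calls, with Tox, Rora, Tcf7 and Ets1 each called in 3 or more fractions. Tox, an HMG-box factor needed for T cell and innate lymphoid development, rose in HSCs and fell in later fractions. It had 606 and 697 counts in Young and 1155 and 1462 in Aged HSCs, or 51.4 ± 3.42 and 99.2 ± 1.92 CPM (SD, n = 2). The difference of 1.00 (SE 0.147, adjusted p = 0.000149) held with any 1 library left out (0.93 to 1.05). In MPP3 it fell from 394 and 403 to 252 and 210 counts (-0.86, SE 0.158, adjusted p = 0.000544) and in MPP4 from 584 and 476 to 309 and 304 counts (-0.69, SE 0.154, adjusted p = 0.00237). The age difference in MPP4 minus that in HSCs was -1.68 for Tox (SE 0.213, adjusted p = 7.64e-05), the 1 call among the 35 genes in that comparison (3.13% of all genes were called), and it held with any 1 library left out. In MEPs Tox fell from 69 and 43 to 0 and 4 counts (-4.33, SE 0.423, adjusted p = 2.38e-07; -8.77 without Aged MEP replicate 2, which leaves a count of 0), and in GMPs it had 0 counts in all 4 libraries. The fall in MPP3 was lost without Young replicate 2 (0.0115) or Aged replicate 2 (0.0117), and that in MPP4 with any 1 library left out (0.0131 to 0.0301).

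Rora was lower in Aged MPP2, MPP3, MPP4 and MEPs and higher in Aged GMPs. Counts were 189 and 228 in Young and 71 and 110 in Aged MPP2, and 327 and 177 against 80 and 73 in MPP4. In MPP3 the level was 21.9 ± 1.14 CPM in Young and 7.2 ± 0.532 CPM in Aged libraries (SD, n = 2), and in none of the 3 fractions did the groups overlap. The log2 differences were -1.33 in MPP2 (SE 0.302, adjusted p = 0.00465), -1.56 in MPP3 (SE 0.298, adjusted p = 0.000616) and -1.59 in MPP4 (SE 0.305, adjusted p = 0.000508). In HSCs and MPP1 the gene moved the same way without passing, with 486 and 570 against 397 and 372 counts (-0.45, adjusted p = 0.344) and 362 and 407 against 182 and 224 counts (-0.92, adjusted p = 0.0345). The mean over MPP1 to MPP4 was -1.35 (SE 0.149, adjusted p = 1.82e-07) and stayed between -1.24 and -1.43 with any 1 library left out.

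In MEPs Rora fell from 197 and 77 to 2 and 5 counts (-4.82, SE 0.504, adjusted p = 2.66e-07), with any 1 library left out too. In GMPs it went from 4 and 0 to 19 and 20 counts, a difference of 3.55 (SE 0.711, adjusted p = 0.000707) at a level of 1.47 ± 0.0325 CPM in Aged cells (SD, n = 2). That difference was 2.57 and not called without Young GMP replicate 2 (adjusted p = 0.0175), and 7.49 without Young replicate 1, which leaves a Young count of 0. The single-fraction calls were lost with any 1 library left out in MPP2 (0.0143 to 0.0928), without Aged replicate 1 in MPP3 (0.0118), and without Young replicate 1 (0.0193) or Aged replicate 2 (0.0127) in MPP4. No strand setting is stated for the counting, so reads of Rora cannot be told apart from those of an antisense gene over 82 of its exon bases, nor those of Tox over 260 bases.

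Tcf7, the factor TCF-1 that commits progenitors to the T lineage, was lower in Aged MPP3 and MEPs and higher in Aged MPP4. It had 144 and 128 counts in Young and 46 and 25 in Aged MPP3 (-2.01, SE 0.442, adjusted p = 0.00207), and 238 and 153 against 16 and 51 in MEPs (-2.14, SE 0.440, adjusted p = 0.000786). In MPP4 the counts were 4 and 6 in Young and 36 and 28 in Aged libraries, a difference of 2.74 (SE 0.652, adjusted p = 0.00329) at a mean of 0.373 against 2.34 CPM. In CLPs, where its level was highest, Tcf7 had 381 and 450 counts in Young and 289 and 414 in Aged libraries (-0.35, SE 0.377, adjusted p = 0.584). The age difference in CLPs minus that in MPP4 was -3.09 for Tcf7 (SE 0.760, adjusted p = 0.00398), and with Cd4 and Cd7 it made up the 3 calls of that comparison (17.7% of all genes were called). It was lost without 5 of the 8 libraries, Young MPP4 replicate 1 (0.0402) or 2 (0.0110), Young CLP replicate 2 (0.0123), Aged MPP4 replicate 1 (0.0210) and Aged CLP replicate 1 (0.0166). The call in MPP3 was lost without Young replicate 1 (0.0150), Young replicate 2 (0.0121) or Aged replicate 2 (0.0459), that in MPP4 without Young replicate 1 (0.0602), Young replicate 2 (0.0140) or Aged replicate 1 (0.0282), and that in MEPs without Aged replicate 1 (0.0243). Without Aged MEP replicate 2 the difference in MEPs was -3.21.

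Ets1 fell in MEPs from 504 and 380 to 28 and 41 counts (-3.27, SE 0.190, adjusted p = 2.77e-11), also with any 1 library left out. Smaller falls were called in MPP3, from 624 and 529 to 460 and 358 counts (-0.57, SE 0.138, adjusted p = 0.00457), and in GMPs, from 548 and 718 to 350 and 355 counts (-0.49, SE 0.138, adjusted p = 0.00953). Those in MPP3 and GMPs were lost without 3 of the 4 libraries each, the exceptions being Aged MPP3 replicate 1 (0.00811) and Young GMP replicate 1 (0.00398). In CLPs Ets1 had 4323 and 4677 counts in Young and 4501 and 3489 in Aged libraries, with no call.

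Gata3, a master factor of helper T cells and innate lymphoid cells that HSCs also express, fell in MEPs from 63 and 75 to 10 and 15 counts (-2.06, SE 0.290, adjusted p = 1.72e-05) and was called nowhere else. Its counts in HSCs, the fraction with its highest level, were 770 and 993 in Young and 921 and 1088 in Aged libraries. Zbtb16, the factor PLZF of innate-like lymphocytes, rose in GMPs from 73 and 81 to 222 and 156 counts (1.64, SE 0.306, adjusted p = 0.000357), a call lost without Aged GMP replicate 1 (0.0120). Bcl11b, which seals T cell commitment, was above 3 counts in 8 libraries. Its highest counts were 54 and 37 in Young MEPs, against 2 and 2 in Aged MEPs (at most -3.51, adjusted p = 0.0102), and in CLPs it had 7 and 13 in Young and 2 and 0 in Aged libraries. Eomes and Tbx21, the T-box factors of NK cells and cytotoxic T cells, had at most 39 and 34 counts and were called with age in no fraction.

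Among the cytokine receptors, Il2rg, the common gamma chain, rose in HSCs from 2893 and 3275 to 3559 and 5216 counts (0.49, SE 0.114, adjusted p = 0.00685). The call was lost without Young HSC replicate 1 (0.0232), Young replicate 2 (0.0916) or Aged replicate 2 (adjusted p = 0.112, difference 0.31). In MEPs it fell from 556 and 669 to 281 and 353 counts (-0.56, SE 0.127, adjusted p = 0.00193), a call lost without Young MEP replicate 2 (0.0666) or Aged replicate 1 (0.0390). Il2rb, the beta chain of the receptors for interleukin-2 and interleukin-15, fell in MPP3 from 62 and 56 to 15 and 8 counts (-2.42, SE 0.642, adjusted p = 0.00949), which was lost with any 1 library left out (0.0348 to 0.0971).

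Il18r1 was higher in both Aged libraries than in both Young ones in HSCs, in MPP1 to MPP4 and in CLPs, though no single fraction passed the test. Its counts were 51 and 52 in Young and 130 and 98 in Aged MPP1, 54 and 49 against 122 and 116 in MPP3, and 60 and 90 against 102 and 177 in CLPs. Averaged over MPP1 to MPP4, the difference was 1.02 (SE 0.207, adjusted p = 0.000439) for Il18r1 and 0.27 (SE 0.0568, adjusted p = 0.000403) for Il2rg, and both held with any 1 library left out. Il7 was called with age in no fraction, and its counts were 82 and 104 in Young and 126 and 131 in Aged HSCs.

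Of the NK and effector genes, only Ccl5, a chemokine of T and NK cells, was called with age. It fell in MPP3 from 100 and 80 to 22 and 16 counts (-2.31, SE 0.583, adjusted p = 0.00644), a call lost with any 1 library left out (0.0254 to 0.0697). The mean over MPP1 to MPP4 was -1.88 (SE 0.323, adjusted p = 6.33e-05) for Ccl5 and -3.05 without Aged MPP1 replicate 2. Klrd1 had 481 and 461 counts in Young and 1153 and 934 in Aged CLPs, a difference of 1.04 (SE 0.323, adjusted p = 0.0331) without overlap of the groups. It passed with GC and length offsets (0.00839), with these and the replicate block (0.00938), without the GMP and MEP libraries (0.00845) and in DESeq2 (5.97e-05), and not with any 1 library left out (0.0544 to 0.273). Gzma, a granzyme of cytotoxic cells, had 17 and 20 counts in Young and 0 and 0 in Aged CLPs, a difference of at most -2.75 (adjusted p = 0.0695). Prf1, the pore-forming protein, had 37 and 21 counts in Young and 6 and 28 in Aged CLPs, and Xcl1, a chemokine of NK and CD8 T cells, had 13 and 13 against 5 and 0. Apart from Klrd1 in CLPs and Ccl5, this group had at most 37 counts in any library.

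In CPM the groups did not overlap for 10 genes that were higher (27.5% of all genes) and for 14 that were lower (31% of all genes) in both Aged CLP libraries, and the other 11 genes overlapped. Of the 35 genes tested, the share that was higher was close to that over all genes, and the share that was lower was above it. The higher ones were Cd27, Cd28, Cd4, Cd7, Cd8b1, Gata3, Il18r1, Il2rg, Il7 and Klrd1. The lower ones were Bcl11b, Ccl5, Cd2, Cd3d, Cd3e, Cd3g, Cd8a, Ets1, Gzma, Tcf7, Thy1, Tox, Xcl1 and Zbtb16. Only Cd7 passed the test. In the fit without the GMP and MEP libraries 6 genes were called (13.3% of all genes), and DESeq2 called 4 (15.8% of all genes).

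**Figure D4:**
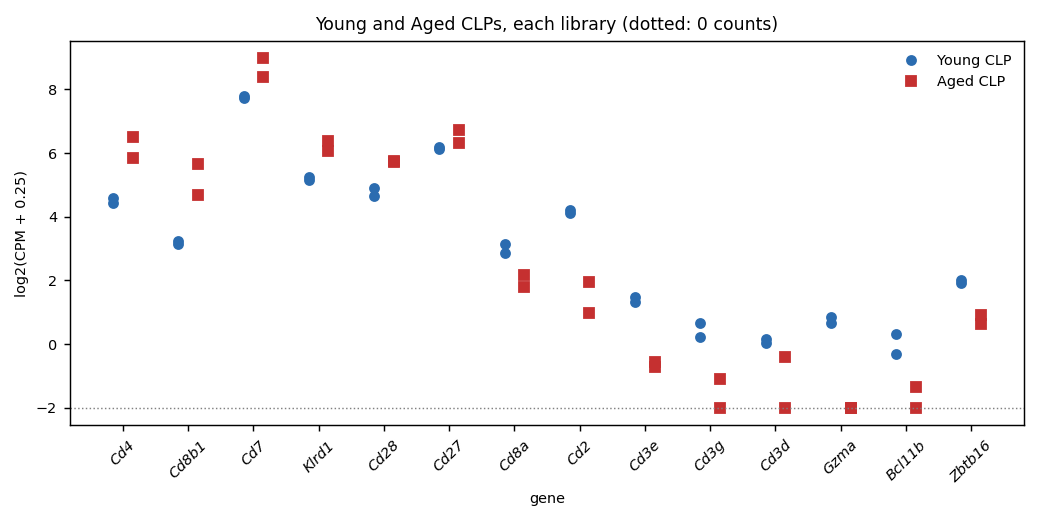
Level of 14 of the genes in each CLP library, Young (circles) and Aged (squares), as log2(CPM + 0.25), with the dotted line at 0 counts. Cd4, Cd8b1, Cd7, Klrd1, Cd28 and Cd27 lie higher in both Aged libraries, and Cd8a, Cd2, the CD3 chains, Gzma, Bcl11b and Zbtb16 lie lower.

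Marker genes of other cell types moved in the same CLP libraries. In bulk RNA, fewer cells of a type and less RNA per cell cannot be told apart. Over the 8 markers of plasmacytoid dendritic cells, which in the mouse can carry Cd4, the summed level was 2725 and 2672 CPM in Young and 6988 and 4919 CPM in Aged CLPs, and 6 of the 8 were called higher. Aged CLP replicate 1 was the higher Aged library for this list and for 7 of the 10 genes that were higher without overlap, Cd4, Cd8b1, Cd7 and Klrd1 among them. For Cd27, Gata3 and Il18r1 it was the lower one, with 80 and 106, 8.71 and 11.3, and 7.28 and 12.7 CPM in Aged replicates 1 and 2. The 12 markers of the B lineage summed to 3325 and 3344 CPM in Young and 1787 and 1753 CPM in Aged CLPs, with 8 called lower. Markers of basophils and mast cells summed to 1664 and 1698 CPM in Young and 7.64 and 11.6 CPM in Aged CLPs, with 5 of 7 called lower, and those of macrophages to 153 and 168 against 3.00 and 2.50 CPM, with 7 of 7 lower.

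The list of mature T cell markers, of which 13 of 16 were in the table, summed to 138 and 146 CPM in Young and 255 and 222 CPM in Aged CLPs, with none of 11 tested called. This sum contains Cd4, Cd8b1 and other genes of the 36, and its defining CD3 genes had the counts given above. The 12 NK cell markers summed to 138 and 131 CPM in Young and 145 and 158 CPM in Aged CLPs, with 2 of 10 tested called lower. That sum contains Klrd1, also among the 36, at 37.9 and 35.5 against 82.3 and 66.8 CPM. Its gene Nkg7 went from 70 and 69.6 to 45.2 and 52.4 CPM. The 8 markers of type 2 innate lymphoid cells summed to 32.2 and 35.0 against 42.0 and 35.0 CPM, with 1 of 5 tested called lower. This list contains Gata3 and Rora of the 36. Within it Il1rl1 had 39 and 31 against 5 and 7 counts, Il17rb had 209 and 240 against 398 and 261, and Il13 and Il5 were at 0 in every CLP library. The part of these cell types in the differences of the 35 genes was not tested.

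In MEPs the falls of the 9 genes came with falls in the B lineage and macrophage lists, but not in every list. The B lineage markers summed to 236 and 232 CPM in Young and 2.31 and 3.05 CPM in Aged MEPs, with 8 of 12 called lower. Macrophage markers summed to 8.99 and 5.84 against 0 and 0.495 CPM, whereas the mature T cell list, 11 of whose 13 genes are among the 36, is no separate measure here. Erythroid markers, the cells' own lineage, summed to 5344 and 5302 CPM in Young and 5959 and 5712 CPM in Aged MEPs, with 0 of 8 called. The NK cell list summed to 32.7 and 33.1 CPM in Young and 15.8 and 21.4 CPM in Aged MEPs. Of its 10 tested genes 1 was called higher and 1 lower. Within it Nkg7 fell from 409 and 422 to 87 and 103 counts, and Klrb1c went from 4 and 11 to 16 and 33. Plasmacytoid dendritic cell markers summed to 87.6 and 75.7 against 102 and 102 CPM, with 1 of 8 called higher and 1 lower and a median log2 difference of -0.92. Most of that sum was Bst2, at 39.6 and 34.6 against 58.7 and 64.3 CPM, and Tcf4, at 36.3 and 33.5 against 41.6 and 36.9 CPM. Spib, of the same list, went from 138 and 105 to 7 and 11 counts. Il2rb, also among the 36, had 42 and 43 counts in Young and 75 and 110 in Aged MEPs, with no call. Of the CD3 chains, Cd3e had 4 and 7 counts in Young and 0 and 0 in Aged MEPs, Cd3d 0 and 6 against 0 and 5, and Cd3g 0 and 0 against 0 and 8. Whether lymphoid cells in the Young gate had a part in the falls was not tested.

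In MPP3, where 8 genes fell, markers of neutrophils summed to 1164 and 1157 CPM in Young and 183 and 246 CPM in Aged libraries, with 6 of 7 called lower. Erythroid markers summed to 1171 and 1131 against 234 and 212 CPM and macrophage markers to 119 and 126 against 33.2 and 33.4 CPM. B lineage markers summed to 54.9 and 55.2 against 44.6 and 44.6 CPM, with 3 of 12 called lower. Not every list fell in sum. Basophil and mast cell markers summed to 373 and 374 against 397 and 411 CPM, with 1 of 7 called higher and 1 lower. Within that list Prss34 went from 480 and 457 to 10 and 17 counts, and Fcer1a from 131 and 104 to 410 and 429. The NK cell list summed to 188 and 199 against 245 and 251 CPM. Most of it was Nkg7, at 169 and 179 against 213 and 217 CPM, and Gzmb went from 10.1 and 10.2 to 29.1 and 30.8 CPM. In the same list Klrk1 went from 26 and 30 to 4 and 5 counts, and Tbx21 from 16 and 13 to 4 and 0. None of 10 tested NK cell markers was called, and their median log2 difference was -1.93. The summed mature T cell markers were 40.1 and 36.9 CPM in Young and 22.7 and 27.2 CPM in Aged MPP3, with Cd3d and Cd3g at 0 in all 4 libraries. Themis had 8 and 8 counts in Young and 0 and 0 in Aged MPP3, Trat1 3 and 4 against 0 and 0, and Cd3e 0 and 3 against 0 and 0. In HSCs, where Tox and Il2rg rose, mature T cell markers summed to 33.4 and 37.9 CPM in Young and 30.3 and 28.9 CPM in Aged libraries, and Cd3d and Cd3e were at 0 in all 4. In HSCs neutrophil markers summed to 61.7 and 66.9 CPM in Young and 298 and 313 CPM in Aged libraries, with 5 of 7 called higher, and 4 of 7 basophil and mast cell markers were called higher too. The NK cell list summed to 32.5 and 28.6 CPM in Young and 88 and 93.8 CPM in Aged HSCs, with 2 of 10 called higher, and its gene Klrb1c alone had 291 and 285 against 868 and 1092 counts. In MPP4 macrophage markers summed to 52.1 and 57.1 CPM in Young and 11.9 and 9.82 CPM in Aged libraries, with 5 of 7 called lower. In GMPs erythroid markers summed to 683 and 631 against 70.1 and 26.5 CPM, with 4 of 8 called lower, and 4 of 7 macrophage and 4 of 7 neutrophil markers were called lower. In MPP2, where Rora fell, erythroid markers summed to 1013 and 1058 against 238 and 227 CPM. The part of such cells in the values of the 35 genes was not tested.

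**Figure D5:**
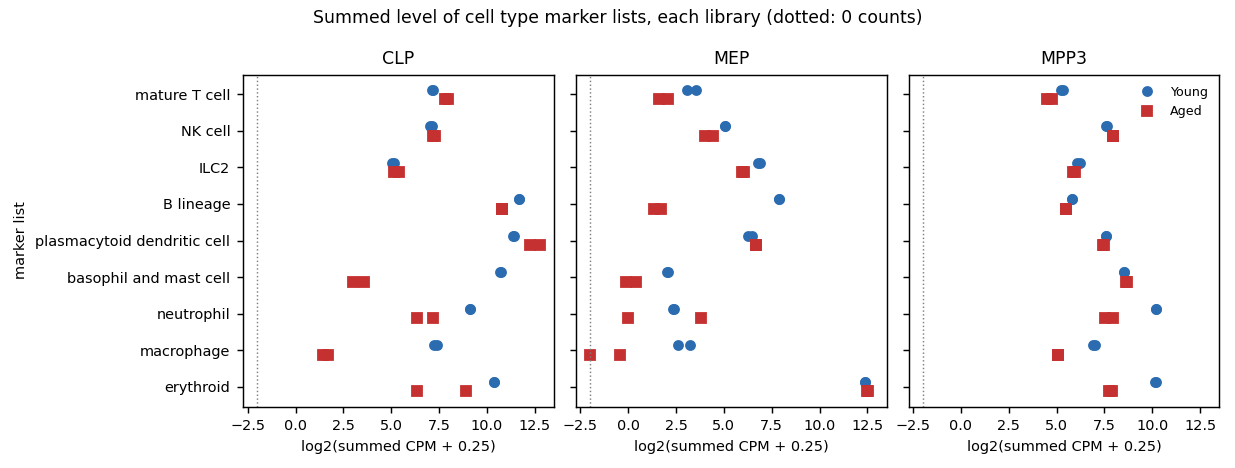
Summed level of 9 lists of cell type markers in each library of CLPs, MEPs and MPP3, Young (circles) and Aged (squares), as log2(summed CPM + 0.25), with the dotted line at 0 counts. In CLPs the plasmacytoid dendritic cell list is higher and the basophil and macrophage lists are far lower in Aged libraries, in MEPs the B lineage list is far lower, and in MPP3 the neutrophil and erythroid lists are lower.

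A further 97 genes of T, NK and innate lymphoid biology that are not among the 36 were counted the same way, 87 of them tested. With age, HSCs had 9 of them higher and 6 lower, MPP1 3 and 7, MPP2 0 and 7, MPP3 0 and 11, MPP4 3 and 10, GMPs 8 and 7, MEPs 4 and 38, and CLPs 13 and 10. As shares of those tested HSCs had 17.2%, MPP1 to MPP4 in turn 11.5%, 8.05%, 12.6% and 14.9%, GMPs 17.2%, MEPs 48.3% and CLPs 26.4%. They were above the share over all genes given above in HSCs, MPP1, MEPs and CLPs, close to it in MPP2, and below it in MPP3, MPP4 and GMPs. In MEPs the genes that fell included Rag1 and Rag2, which recombine receptor genes, Notch1 and its target Hes1, Lef1, Il7r and Ptprc. In CLPs, where 10.4% of all genes were called in either direction, 7 of 21 tested genes of T cell receptor signalling rose and 1 fell. Those that rose included the kinase gene Fyn and the adaptor gene Lcp2, and Rasgrp1 fell. Of 8 tested effector genes none rose in CLPs and 4 fell (Gzmb, Nkg7, Ccl3 and Ccl4). Hes1 was called lower in HSCs, in MPP1 to MPP4, in MEPs and in CLPs.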

How the data were processed

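RNA-seq was deposited as a gene count table for 32 libraries. Per the labels and the study's methods, reads were aligned with TopHat2 2.0.13 and Bowtie2 2.1.0 to mm10 and counted with StringTie, with no strand setting given in the sources used here. The labels and the methods name different sequencers. The deposited counts were used as raw counts. A deposited normalized table (32 columns) and the authors' comparison tables, which hold fold changes and p-values, were not used. Genes were filtered with filterByExpr over the 16 groups, scaled by TMM (factors 0.807 to 1.11) and tested with edgeR 4.0.16 in R 4.3.3, a quasi-likelihood fit on all 32 libraries with 16 residual degrees of freedom and Benjamini-Hochberg adjustment over 14154 genes. A call is an adjusted p under 0.01. Where both libraries of a group held at most 3 counts, a fold is given as a bound against 3 counts per library. The fit was tested on simulated data. Alternatives were DESeq2 1.42.0, DESeq2 size factors, no filter, the compared groups alone, a replicate block, GC and length offsets, and leaving out each library. Named genes were the CD3, CD4 and CD8 genes, those called in CLPs or in 3 or more fractions, the 2 largest called changes per fraction and those called in a difference of age differences. Genes named beyond this rule were chosen after their values were seen. The 36 genes and all lists were chosen with earlier results of these data known. Not every gene of these lists is reported here.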

Additional observations from a re-analysis of the deposited data

Results flagged for a closer look

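For 4 values the age difference itself differed between fractions by an interaction test in edgeR. For CLPs minus MPP4 these were 3 of 35 genes (8.57%, beside 17.7% of all genes). For MPP4 minus HSCs it was 1 of 35 (2.86%, beside 3.13%), so neither share lay above that over all genes. The age difference of Cd4 in CLPs minus that in MPP4 was 3.49, since Cd4 was lower in both Aged MPP4 libraries and higher in both Aged CLP libraries than in the Young ones. That of Cd7 was 1.67 and that of Tcf7 was -3.09 for the same pair of fractions. For Tox the age difference in MPP4 minus that in HSCs was -1.68, with a rise in Aged HSCs and a fall in Aged MPP4. The difference for Tox passed with any 1 of 8 libraries left out, and those for Cd4, Cd7 and Tcf7 did not.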

How the results depend on the processing

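None of the 121 pairs of a named gene and a contrast turned its direction under the alternatives that gave it a value. The number of genes called moved by more than 1.5 times in these cases, given with the share of all genes called in the same fit in brackets. With the compared groups alone, where fewer libraries estimate the spread, it was 1 in HSCs (1.44%), 4 in MPP1 (15.8%), 5 in MPP2 (22.3%), 0 in GMPs (3.45%), 2 in MEPs (5.53%) and 0 in CLPs (0.961%). With DESeq2 it was 4 in HSCs (11.3%), 2 in MPP1 (12.8%), 3 in MPP2 (14.6%), 4 in CLPs (15.8%), 6 for CLPs minus MPP4 (25.2%) and 2 for MPP4 minus HSCs (7.91%). With GC and length offsets it was 3 in CLPs (12.2%). Without the GMP and MEP libraries, an alternative chosen after seeing the data, it was 3 in MPP1 (9.31%), 2 in MPP2 (10.2%), 6 in CLPs (13.3%) and 6 for CLPs minus MPP4 (21.1%). The cause of these shifts was not tested. With 1 library left out the counts ran from 1 to 2 in HSCs, 0 to 1 in MPP1, 0 to 0 in MPP2, 1 to 4 in MPP3, 0 to 2 in MPP4, 1 to 5 in GMPs, 6 to 8 in MEPs, 0 to 1 in CLPs, 9 to 9 and 8 to 10 for MPP4 against HSCs in Young and Aged cells, 16 to 20 and 15 to 17 for CLPs against MPP4, 0 to 3 for CLPs minus MPP4, 1 to 1 for MPP4 minus HSCs and 7 to 9 for the mean over MPP1 to MPP4.

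Deviations of same-numbered Young and Aged libraries correlated at -0.06 to 0.07 over the 8 fractions. Over all pairs of groups, those of different fractions included, the range was -0.07 to 0.11 with a median of 0.01. No pairing by replicate number was seen in these values, and whether same-numbered fractions shared a marrow pool cannot be told from them. With the replicate block 3 genes were called in CLPs (10.6% of all genes), and with the block and GC offsets 4 (12.4%), or 5 for CLPs minus MPP4 (19.6%). Cd3d was at 0 counts in 25 of 32 libraries, Cd3e in 22, Cd3g in 25, Gzma in 28 and Xcl1 in 19, where a difference below 3 counts was not detectable.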
